A study of Mus musculus with 12 samples.

Results

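MyoD was compared directly with Myf5 in 4 RNA-seq libraries of the 12 samples in the series: fibroblasts given a MyoD lentivirus at a 1x or a 2x dose, against fibroblasts given a Myf5 lentivirus at 1x or 2x. The members are the 4 libraries that the labels name 1x MyoD_A, 2x MyoD, 1x Myf5 and 2x Myf5, taken from 1 count table. All cells were M&M mouse embryonic fibroblasts, which are null for both introduced factors (MyoD-/-; Myf5-/-), so the controls lack both genes too. They were exposed to virus for 24 h with polybrene and then held in differentiation medium for 20 h before poly(A) RNA was taken. The same table holds 6 libraries without a muscle factor, namely 5 that received GFP virus (1x, and a series at an MOI of 15, 30, 60 and 120) and 1 without virus. The MOI behind 1x and 2x, the promoter of the vectors, and whether the fibroblasts are 1 clone are not stated. The labels name no separate cultures, so p-values measure only the spread between these libraries, and each factor has 2 libraries that differ in dose. The main fit also treated the 5 GFP libraries as 1 group, so its spread holds differences between doses of GFP virus too.

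MyoD and Myf5 are basic helix-loop-helix transcription factors that commit cells to skeletal muscle. Both bind DNA as dimers with E proteins at the E-box motif CANNTG. Myogenin, encoded by Myog, acts after them and drives terminal differentiation, in which myoblasts leave the cell cycle, fuse and assemble sarcomeres. Forced expression of MyoD in fibroblasts is the classical way to convert them into muscle-like cells.

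The 4 libraries held 68.3 to 80.6 M (mega) counts and differed beyond counting noise within each factor. The 6 libraries without a factor held 17.9 to 81.5 M counts, and the 4 of the MOI series were the shallowest. All 7 fibroblast markers, among them Col1a1 and Vim, passed the filter on low counts, and their summed level was 13288 and 9720.2 CPM (counts scaled to 1 M per library) in 1x and 2x MyoD, 14929 and 12506 in 1x and 2x Myf5, and 16263 to 18374 in the libraries without a factor. None of the 4 endothelial or 4 epithelial markers passed, with sums of at most 1.13 and 0.695 CPM in the 4 libraries. The 4 macrophage markers summed to 12.3 to 14.9 CPM with Adgre1 at 0, against 10.2 to 13.1 CPM in the libraries without a factor. The 4 neuron and glia markers summed to 44.5 to 50.6 CPM, above the 13.3 to 33.9 CPM without a factor. The 4 cardiac markers summed to 2.75 to 3.87 CPM, against 2.17 to 9.07 CPM without a factor. The 4 smooth muscle markers summed to 696 and 1157 CPM in MyoD and 546 and 519 CPM in Myf5, against 239 to 678 CPM without a factor. Whether these markers come from other cells, and what such cells contribute to the results, was not tested. In bulk RNA, fewer cells of a type and less RNA per cell cannot be told apart.

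The introduced factors set the scale of the comparison. Myod1 was at 309 and 617 CPM in 1x and 2x MyoD, and at 5.36 and 5.21 CPM in 1x and 2x Myf5, at or just below the range of 5.31 to 5.99 CPM in the libraries without a factor. Myf5 was at 149.5 and 249 CPM in 1x and 2x Myf5 and at 15.0 and 11.9 CPM in 1x and 2x MyoD, below the 17.2 to 24.4 CPM of the libraries without a factor. Each transgene thus matched its label and was higher at 2x than at 1x. Reads from a deleted locus and from a virus are counted together under 1 gene name.

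Levels of 2 different genes are comparable only per length. Per kilobase of coding length (954 bases for Myod1 and 765 for Myf5, from the GENCODE vM21 annotation), Myod1 stood at 324 and 647 CPM in 1x and 2x MyoD. On that scale Myf5 stood at 195 and 326 CPM in 1x and 2x Myf5. The Myod1 level was therefore 1.66-fold the Myf5 level at 1x and 1.99-fold at 2x. Reads seen without a transgene were not taken off, so these ratios are approximate. Before scaling by length, they were 5.31 to 5.99 CPM for Myod1 and 17.2 to 24.4 CPM for Myf5 in the libraries without a factor. Across doses, 1x MyoD and 2x Myf5 were nearly equal, at a ratio of 0.996, and this cross pair is given beside the dose-matched values throughout. Protein was not measured.

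Of 13825 genes tested, 582 were higher in MyoD and 179 were lower (4.21% and 1.29%; edgeR quasi-likelihood test, Benjamini-Hochberg adjusted p under 0.05). At 2-fold or more, 268 were higher and 26 were lower. Genes of differentiated muscle led the rises. The median log2 fold change of all genes was -0.01. Both MyoD libraries lay above both Myf5 libraries for all 582, against 29.9% of all genes, and below them for all 179, against 33.8%. The calls came from these same libraries, so this separation is not separate evidence. The calls depend on how the spread is estimated. In the 4 libraries alone, with no term for dose, no gene was called, with 3136 at an unadjusted p under 0.05, and without the MOI series no gene was called, with 3167. With a dose term in the 4 libraries alone, 1281 were higher and 834 lower, among them 576 of the 582 and 153 of the 179. Without 1x Myf5, and likewise without 2x Myf5, 1 gene was called in each direction, Myod1 and Myf5, while 1919 and 2493 genes had an unadjusted p under 0.05. Leaving out 2x MyoD gave 20 higher and 1 lower, and leaving out 1x MyoD gave 1330 higher and 845 lower. None of the 582 and 179 calls changed sign in any of these fits. The lack of overlap between the factors largely fixed this outcome in advance, so it adds no evidence for the calls.

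**Figure D1:**
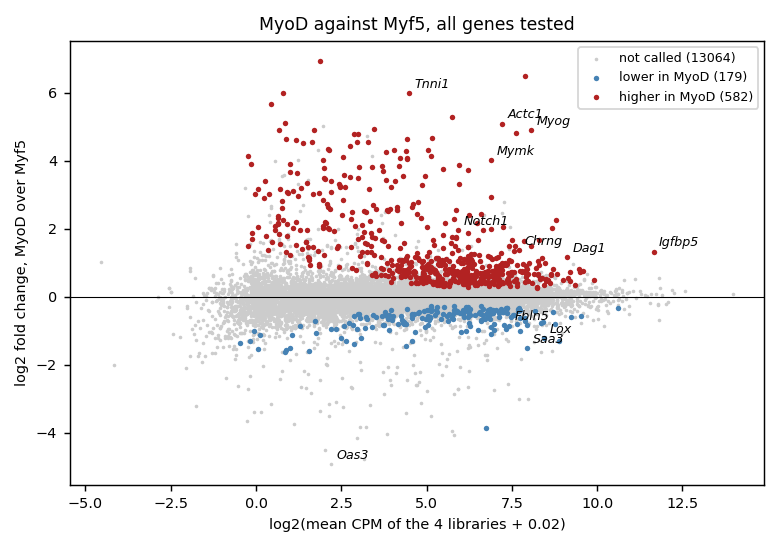
Log2 fold change of MyoD over Myf5 (vertical axis) against the log2 mean level of the 4 libraries (horizontal axis) for 13825 genes. The 582 genes called higher (red) reach far larger differences than the 179 called lower (blue), among which only the Myf5 transgene exceeds 2 on the log2 scale.

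Myog, the myogenin gene, had the largest log2 fold change of the myogenic transcription factors tested, the transgenes aside. It was at 270.3 and 763 CPM in 1x and 2x MyoD and 5.91 and 29.4 CPM in 1x and 2x Myf5. Both Myf5 values exceeded the 0 to 0.503 CPM of the libraries without a factor, and both lay far below MyoD. Its log2 fold change was 4.90 ± 0.89 (SE; edgeR quasi-likelihood adjusted p = 0.0256), and the difference persisted in the cross pair, at 270.3 against 29.4 CPM, or 3.21 on the log2 scale. DESeq2 did not call Myog, at an adjusted p of 0.223.

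Among 24 transcription factors and cofactors of myogenesis, 20 passed the filter on low counts. Of the 20, 9 were higher in MyoD (45%, against 4.21% of all genes) and 0 were lower. The median log2 fold change was 0.69 over those 20. Of the 15 that pass in the libraries without a factor alone, 5 were higher, with a median of 0.37. Smyd1, a muscle-specific methyltransferase and myosin chaperone, was at 23.2 and 58.9 CPM in 1x and 2x MyoD and 0.937 and 2.45 CPM in 1x and 2x Myf5. The log2 fold change was 4.62 ± 0.58 (edgeR adjusted p = 0.0212) and the 2 factors did not overlap. Mef2a, a MADS-box factor that works with the myogenic factors, was at 250.0 and 445 CPM in 1x and 2x MyoD and 101 and 127 CPM in 1x and 2x Myf5, a log2 fold change of 1.63 ± 0.23 (edgeR adjusted p = 0.0229). Without any factor Mef2a was at 72.5 to 78.6 CPM, below both Myf5 libraries.

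The RNA-binding protein gene Rbm24, which promotes muscle splicing, was at 16.1 and 46.7 CPM in 1x and 2x MyoD and 0.703 and 2.53 CPM in 1x and 2x Myf5. The difference was 4.31 on the log2 scale, and DESeq2 did not call it (adjusted p = 0.0987). Smaller rises were called for Mef2d (0.74), Hes6 (1.09), Six4 (0.68), Tead4 (1.64) and, at a low level, Pitx3 (3.03), examples chosen after their values were seen. Mef2c, another MEF2 gene, was at 3.33 and 5.53 CPM in 1x and 2x MyoD and 3.16 and 4.69 CPM in 1x and 2x Myf5, with an adjusted p of 0.840 in edgeR. Leaving out 2x MyoD left 1 member of the list called, and leaving out either Myf5 library left 0.

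**Figure D2:**
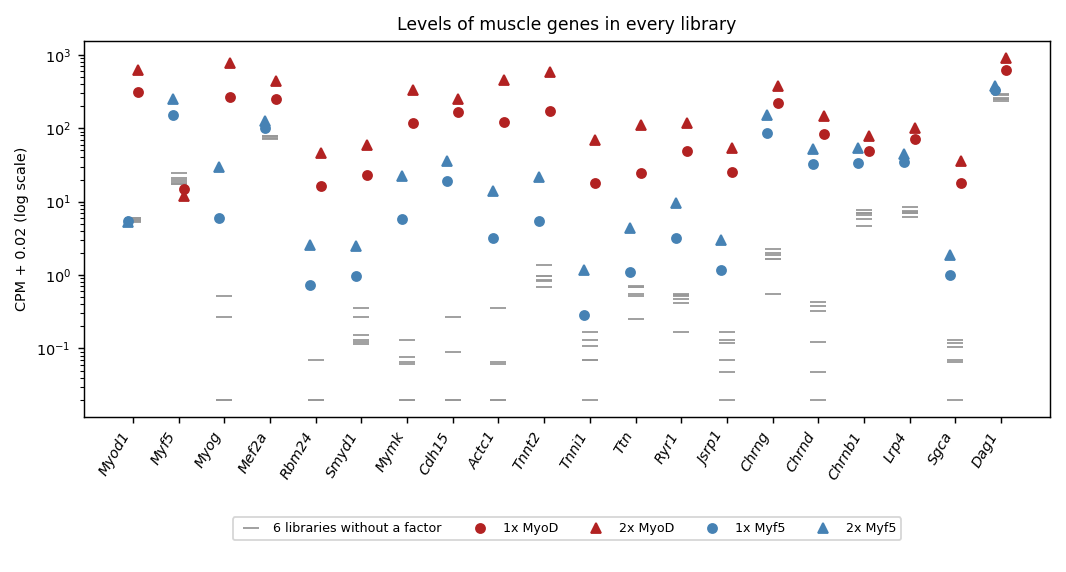
Levels of 20 genes in every library, as CPM with 0.02 added on a log axis, with MyoD in red, Myf5 in blue, circles for 1x, triangles for 2x and grey bars for the 6 libraries without a factor. The gap between red and blue is wide for Myog, Actc1 and Tnni1 and narrow for Chrng, Chrnd, Chrnb1 and Lrp4.

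The promoters of 6 genes are shown because these genes span the range of differences seen here. Myog, Tnni1 and Actc1 differed most, the acetylcholine receptor genes Chrng and Chrnb1 differed little in the cross pair, and Atoh8 did not differ between the factors. Each line gives the 250 bases before the transcription start, 5′ to 3′ on the gene's strand, from RefSeq (GRCm38.p6, a later build than the mm9 used for alignment). Capitals mark E-boxes, CANNTG, a motif that reads the same on both strands. Of the 2 starts listed for Tnni1, the first is shown.
Myog (chr1:134289754-134290003, plus strand): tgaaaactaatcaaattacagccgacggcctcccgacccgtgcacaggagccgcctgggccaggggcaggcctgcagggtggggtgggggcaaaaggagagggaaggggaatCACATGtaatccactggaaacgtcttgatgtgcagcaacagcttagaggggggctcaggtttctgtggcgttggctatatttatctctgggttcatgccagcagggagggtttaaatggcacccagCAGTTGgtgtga
Tnni1 (chr1:135799171-135799420, plus strand): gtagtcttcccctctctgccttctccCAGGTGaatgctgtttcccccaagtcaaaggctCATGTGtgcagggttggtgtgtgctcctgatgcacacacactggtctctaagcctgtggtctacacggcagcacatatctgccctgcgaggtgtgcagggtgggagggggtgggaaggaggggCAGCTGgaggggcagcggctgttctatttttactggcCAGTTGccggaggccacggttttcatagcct
Actc1 (chr2:114052876-114053125, minus strand): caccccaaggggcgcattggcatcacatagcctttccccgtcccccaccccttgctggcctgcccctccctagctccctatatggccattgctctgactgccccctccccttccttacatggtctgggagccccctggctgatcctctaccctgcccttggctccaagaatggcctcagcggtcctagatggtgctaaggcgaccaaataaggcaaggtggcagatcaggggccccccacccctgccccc
Chrng (chr1:87205561-87205810, plus strand): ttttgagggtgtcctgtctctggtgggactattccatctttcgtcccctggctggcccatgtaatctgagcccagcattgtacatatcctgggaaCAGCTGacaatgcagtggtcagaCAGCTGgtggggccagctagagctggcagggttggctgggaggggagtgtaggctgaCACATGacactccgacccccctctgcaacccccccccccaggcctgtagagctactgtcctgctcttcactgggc
Chrnb1 (chr11:69795938-69796187, minus strand): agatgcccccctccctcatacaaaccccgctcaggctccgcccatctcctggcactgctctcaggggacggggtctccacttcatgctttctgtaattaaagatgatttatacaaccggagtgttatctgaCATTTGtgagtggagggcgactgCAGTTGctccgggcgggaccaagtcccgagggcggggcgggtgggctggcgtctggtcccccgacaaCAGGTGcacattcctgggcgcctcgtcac
Atoh8 (chr6:72235578-72235827, minus strand): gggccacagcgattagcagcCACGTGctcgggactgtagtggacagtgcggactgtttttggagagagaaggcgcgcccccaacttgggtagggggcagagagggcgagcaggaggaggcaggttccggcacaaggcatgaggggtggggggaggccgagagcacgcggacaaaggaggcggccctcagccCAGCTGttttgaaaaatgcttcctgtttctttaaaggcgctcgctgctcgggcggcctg

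The windows of Myog, Tnni1, Actc1, Chrng, Chrnb1 and Atoh8 held 2, 4, 0, 3, 3 and 2 E-boxes. CAGCTG, a form of CANNTG known to be bound by MyoD, occurred 1 time in Tnni1, 2 times in Chrng and 1 time in Atoh8. Of the 267 genes called higher at 2-fold or more, Myod1 aside, 189 had a promoter in the table. CAGCTG was present in 45 of them (23.8%), against 11.7% of the 9968 promoters of all genes tested and 12.8% of all 27025 in the table. CAGGTG, searched on both strands as CAGGTG or CACCTG and also a form of CANNTG, was present in 45 (23.8%), against 14.2% and 17.1%. CANNTG as a whole was present in 67.7%, against 56.2% and 66.0%. Among the 25 genes called lower at 2-fold or more, Myf5 aside, 18 had a promoter. CAGCTG was present in 6 of them (33.3%), CAGGTG in 3 (16.7%) and CANNTG in 13 (72.2%). The CAGCTG share was thus no lower here than among the genes called higher. These shares carry no test, and a match is a string of letters and not a measured site.

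Sarcomere genes, which encode the contractile filaments and their assembly factors, had the highest median log2 fold change of any list. Of 60 written, 36 passed the filter, with a median log2 fold change of 3.18. Of the 36, 25 were higher in MyoD (69.4%, against 4.21% of all genes) and 0 lower. Because many of these genes pass only through the MyoD libraries, the 18 that pass in the libraries without a factor alone are given too: 9 of them were higher, with a median of 1.37. Tnni1, slow skeletal troponin I, was at 17.9 and 69.6 CPM in 1x and 2x MyoD and 0.264 and 1.14 CPM in 1x and 2x Myf5. Its log2 fold change of 5.99 ± 0.81 (edgeR adjusted p = 0.0229) was the largest among called genes with a mean of at least 5 CPM over the 4 libraries, other than the transgene. Tnnc2, fast troponin C, was at 9.27 and 32.8 CPM in 1x and 2x MyoD and 0.527 and 0.876 CPM in 1x and 2x Myf5, a log2 fold change of 4.93 ± 0.59 (edgeR adjusted p = 0.0180). The troponins of fast and slow fibres were thus both higher in MyoD, as was Tnnt2, the cardiac and embryonic troponin T, at 169.8 and 593 CPM in 1x and 2x MyoD and 5.48 and 21.9 CPM in 1x and 2x Myf5.

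Actin, myosin and titin genes showed the same order of libraries. Actc1, cardiac alpha-actin, which is also the early actin of skeletal muscle, was at 122 and 458 CPM in 1x and 2x MyoD and 3.21 and 14.2 CPM in 1x and 2x Myf5. Myh3, embryonic myosin heavy chain, was at 31.4 and 177 CPM in 1x and 2x MyoD and 1.01 and 4.44 CPM in 1x and 2x Myf5. Their log2 fold changes were 5.09 ± 0.86 for Actc1 and 5.29 ± 0.95 for Myh3 in edgeR, and DESeq2 called neither (adjusted p = 0.0769 and 0.106). Ttn, the molecular spring titin, was at 24.4 and 112 CPM in 1x and 2x MyoD and 1.08 and 4.39 CPM in 1x and 2x Myf5. Unc45b, a chaperone of myosin, was at 26.6 and 98.5 CPM in 1x and 2x MyoD and 1.16 and 5.23 CPM in 1x and 2x Myf5. In each of these genes 2x MyoD was the highest library and 1x Myf5 the lowest of the 4, and 1x MyoD lay above 2x Myf5. Tpm1, a tropomyosin that fibroblasts also express, differed little, at 686 and 767 CPM in 1x and 2x MyoD and 572 and 589 CPM in 1x and 2x Myf5 (log2 fold change 0.35 ± 0.08).

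The gap over the 36 sarcomere genes tested was smaller in the cross pair, where transgene levels were closest, but remained. Over the 36 genes the median log2 ratio was 2.71 at 1x, 3.18 at 2x and 1.70 in the cross pair. Only 18 of the 36 pass the filter in the libraries without a factor, and no pair or dose median was taken over those 18. Among the 25 called genes, 2x Myf5 reached a median of 24.3% of the 1x MyoD level, with a range of 6.35% to 86.0%. These 25 were called as higher in MyoD in the same libraries, so a low percentage was largely fixed in advance. Over all 36 tested the median was 30.8%. Sarcomere genes also responded to dose, with a median 3.10-fold rise from 1x to 2x MyoD and 1.99-fold from 1x to 2x Myf5. Without 2x MyoD, 3 sarcomere genes were called, and with 1x or 2x Myf5 left out 0 were called, with medians of 2.05, 2.61 and 4.06 when 2x MyoD, 1x Myf5 and 2x Myf5 were left out.

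Genes of excitation-contraction coupling, which link the membrane signal to calcium release, followed the sarcomere genes. Of 25 written, 16 passed the filter, with a median log2 fold change of 2.54. Of the 16, 9 were higher in MyoD (56.25%, against 4.21% of all genes) and 0 were lower. Of the 9 that pass in the libraries without a factor, 3 were higher, with a median of 0.88. Jsrp1, a junctional protein of the sarcoplasmic reticulum, was at 25.2 and 54.6 CPM in 1x and 2x MyoD and 1.16 and 3.01 CPM in 1x and 2x Myf5 (log2 fold change 4.28 ± 0.53, edgeR adjusted p = 0.0202). Srl, the calcium-store protein sarcalumenin, was at 26.4 and 67.0 CPM in 1x and 2x MyoD and 5.59 and 8.25 CPM in 1x and 2x Myf5 (log2 fold change 2.78 ± 0.40, edgeR adjusted p = 0.0229). Ryr1, the calcium release channel, was at 48.8 and 118 CPM in 1x and 2x MyoD and 3.18 and 9.48 CPM in 1x and 2x Myf5. The libraries of the 2 factors did not overlap for Jsrp1, Srl or Ryr1. In the cross pair the median log2 ratio over all 16 genes that passed was 1.00. Without 2x MyoD, 1 coupling gene was called, and with 1x or 2x Myf5 left out 0 were.

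Muscle energy genes were higher in MyoD in 6 of 15 that passed (40%, against 4.21% of all genes), of 20 written. Of the 15, 0 were lower, and the median log2 fold change was 1.38. Of the 10 that pass without a factor, 4 were higher, with a median of 0.65. Ckb, the brain-type creatine kinase, was at 65.6 and 119.6 CPM in 1x and 2x MyoD and 17.2 and 21.7 CPM in 1x and 2x Myf5 (log2 fold change 2.28 ± 0.34, edgeR adjusted p = 0.0229). Cox7a1, a muscle subunit of cytochrome oxidase, was at 3.79 and 4.49 CPM in 1x and 2x MyoD and 1.26 and 1.77 CPM in 1x and 2x Myf5 (log2 fold change 1.47 ± 0.22, edgeR adjusted p = 0.0229). For Ckb and Cox7a1 alike the 2 MyoD libraries lay above both Myf5 libraries, which stayed at or near the controls. Ckm, the muscle creatine kinase, was at 6.61 and 29.7 CPM in 1x and 2x MyoD and 0.220 and 1.18 CPM in 1x and 2x Myf5, and its adjusted p in edgeR was 0.0809. No energy gene was called when 2x MyoD, 1x Myf5 or 2x Myf5 was left out.

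Neuromuscular junction genes included receptor genes that both factors brought far above the controls. Of 14 written, 10 passed, 6 were higher in MyoD (60%, against 4.21% of all genes) and 0 were lower. The median log2 fold change of the 10 was 1.20, and their median log2 ratio in the cross pair was 0.59. Of the 7 that pass without a factor, 4 were higher, with a median of 0.66. Chrng, the embryonic gamma subunit of the acetylcholine receptor, was at 220.2 and 381 CPM in 1x and 2x MyoD and 85.0 and 154 CPM in 1x and 2x Myf5, against 0.536 to 2.23 CPM without a factor. Its log2 fold change was 1.36 ± 0.30 (edgeR adjusted p = 0.0392). Every library with a factor was thus well above every library without one, and 1x MyoD exceeded 2x Myf5 by only 0.53 on the log2 scale. Chrnd, the delta subunit, was at 84.4 and 149 CPM in 1x and 2x MyoD and 32.1 and 52.7 CPM in 1x and 2x Myf5 (edgeR adjusted p = 0.0554). Chrnb1, the beta subunit, was at 48.4 and 78.8 CPM in 1x and 2x MyoD and 34.0 and 53.6 CPM in 1x and 2x Myf5, so that 2x Myf5 lay above 1x MyoD and the factors overlapped (edgeR adjusted p = 0.257).

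Other junction genes differed by varying amounts. Chrna1, the alpha subunit, was at 4.78 and 15.0 CPM in 1x and 2x MyoD and 0.937 and 1.18 CPM in 1x and 2x Myf5, with both Myf5 libraries near or below the 1.10 to 2.37 CPM of the controls. Its log2 fold change was 3.25 ± 0.53 (edgeR adjusted p = 0.0229). The subunits of 1 receptor therefore differed between the factors by unequal amounts, with log2 fold changes of 3.25 for Chrna1, 1.48 for Chrnd, 1.36 for Chrng and 0.56 for Chrnb1. Lrp4, the agrin receptor, was at 70.3 and 101 CPM in 1x and 2x MyoD and 34.4 and 45.1 CPM in 1x and 2x Myf5 (log2 fold change 1.13 ± 0.19, edgeR adjusted p = 0.0229). Dok7, an activator of the receptor kinase, was at 14.2 and 34.8 CPM in 1x and 2x MyoD and 0.469 and 3.39 CPM in 1x and 2x Myf5, and Rapsn, which clusters the receptors, was at 32.0 and 41.6 CPM in 1x and 2x MyoD and 14.9 and 16.0 CPM in 1x and 2x Myf5. Without 2x MyoD, or with 1x or 2x Myf5 left out, 0 junction genes were called.

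The dystrophin complex, which ties the cytoskeleton to the matrix, was split by gene. Of 20 written, 12 passed, 4 were higher in MyoD (33.3%, against 4.21% of all genes) and 0 were lower. The median log2 fold change was 0.33. Of the 10 that pass without a factor, 2 were higher, with a median of 0.12. Sgca, the muscle alpha-sarcoglycan, was at 17.7 and 35.7 CPM in 1x and 2x MyoD and 0.996 and 1.85 CPM in 1x and 2x Myf5. The log2 fold change of Sgca was 4.25 ± 0.43 (edgeR adjusted p = 0.0112) and 3.25 in the cross pair. Dag1, dystroglycan, which many cells express, was at 627 and 911 CPM in 1x and 2x MyoD and 329 and 372 CPM in 1x and 2x Myf5, and Dtna, dystrobrevin alpha, was at 37.6 and 41.5 CPM in 1x and 2x MyoD and 28.2 and 29.9 CPM in 1x and 2x Myf5. Without 2x MyoD, 2 members were called, and with 1x or 2x Myf5 left out 0 were.

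Fusion and adhesion genes were called in both directions. Of 23 written, 19 passed, 4 were higher in MyoD (21.1%) and 1 was lower (5.26%), against 4.21% and 1.29% of all genes. The median log2 fold change was -0.08. Of the 16 that pass without a factor, 1 was higher and 1 was lower, with a median of -0.10. Mymk, the muscle fusogen myomaker, was at 119 and 328 CPM in 1x and 2x MyoD and 5.80 and 22.3 CPM in 1x and 2x Myf5 (log2 fold change 4.02 ± 0.66, edgeR adjusted p = 0.0229). Cdh15, M-cadherin, was at 167 and 252 CPM in 1x and 2x MyoD and 19.2 and 36.3 CPM in 1x and 2x Myf5 (log2 fold change 2.94 ± 0.44, edgeR adjusted p = 0.0229), although DESeq2 gave an adjusted p of 0.379. For Mymk and Cdh15 both Myf5 libraries exceeded the controls, which reached at most 0.110 and 0.245 CPM, and both lay well below MyoD. Mymx, the micropeptide partner of myomaker, was at 21.6 and 62.3 CPM in 1x and 2x MyoD and 4.38 and 8.61 CPM in 1x and 2x Myf5, and Jam3, an adhesion molecule, at 80.4 and 139 CPM in 1x and 2x MyoD and 41.8 and 51.6 CPM in 1x and 2x Myf5. Vcam1, an integrin ligand, was the member that was lower, at 206 and 148 CPM in 1x and 2x MyoD and 295 and 345 CPM in 1x and 2x Myf5 (log2 fold change -0.84 ± 0.16). Without 2x MyoD, or with 1x or 2x Myf5 left out, 0 fusion genes were called.

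Notch pathway genes rose in MyoD over Myf5 at several levels of the pathway, which holds myogenic cells in an undifferentiated state and is activated by ligands on neighbouring cells. Of 20 written, 12 passed, 5 were higher (41.7%, against 4.21% of all genes) and 0 were lower. The median log2 fold change was 0.32. Of the 11 that pass without a factor, 4 were higher, with a median of 0.31. The ligand Dll1 was at 30.9 and 58.0 CPM in 1x and 2x MyoD and 6.02 and 10.9 CPM in 1x and 2x Myf5. The receptor Notch1 was at 77.5 and 113 CPM in 1x and 2x MyoD and 26.1 and 24.1 CPM in 1x and 2x Myf5, with Myf5 above the 9.20 to 20.0 CPM of the controls (log2 fold change 1.95 ± 0.21, edgeR adjusted p = 0.0119). Notch1 was no higher at 2x than at 1x Myf5, and its log2 ratio of 1.70 in the cross pair was close to the 1.59 at 1x.

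Of the Notch target genes, Hes1 was at 10.4 and 12.5 CPM in 1x and 2x MyoD and 5.52 and 4.76 CPM in 1x and 2x Myf5, while the controls held 7.09 to 11.3 CPM. Both Myf5 libraries thus lay below every control and 1x MyoD within and 2x MyoD above the control range. Its log2 fold change was 1.18 ± 0.21 (edgeR adjusted p = 0.0252). Hey1, another target, was at 1.07 and 2.21 CPM in 1x and 2x MyoD and 0 and 0.219 CPM in 1x and 2x Myf5, and the receptor Notch3 was at 51.1 and 56.3 CPM in 1x and 2x MyoD and 25.9 and 31.2 CPM in 1x and 2x Myf5. Without 2x MyoD, Notch1 was the 1 Notch gene called, and with 1x or 2x Myf5 left out 0 were.

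Growth factor genes moved both ways, with 4 higher (14.8%) and 2 lower (7.41%) of 27 that passed from 36 written. Over all genes, 4.21% were higher and 1.29% were lower. The list's median log2 fold change was -0.21. Of the 26 that pass without a factor, 3 were higher and 2 lower, with the same median. Erbb3, a neuregulin receptor, was at 12.2 and 38.5 CPM in 1x and 2x MyoD and 1.41 and 3.42 CPM in 1x and 2x Myf5 (log2 fold change 3.42 ± 0.56, edgeR adjusted p = 0.0229). Igfbp3, an IGF-binding protein, was at 29.8 and 75.1 CPM in 1x and 2x MyoD and 3.43 and 7.47 CPM in 1x and 2x Myf5 (log2 fold change 3.29 ± 0.54, edgeR adjusted p = 0.0229). For Erbb3 and Igfbp3 alike 1x MyoD lay above 2x Myf5. Igfbp5, the most abundant of the group, was at 4338 and 4815 CPM in 1x and 2x MyoD and 1503 and 2203 CPM in 1x and 2x Myf5, and the fetal growth factor gene Igf2 was at 5.01 and 10.3 CPM in 1x and 2x MyoD and 1.04 and 1.58 CPM in 1x and 2x Myf5. Kitl and Rspo2, which encode stem cell factor and a Wnt enhancer, were lower, with log2 fold changes of -0.71 for Kitl and -0.83 for Rspo2. Without 2x MyoD, or with 1x or 2x Myf5 left out, 0 growth factor genes were called.

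Genes of cell cycle exit were called in both directions. Of 18 tested, 3 were higher (16.7%) and 1 lower (5.56%), against 4.21% and 1.29% of all genes. Their median log2 fold change was 0.14. Cdkn1c, the inhibitor p57, was at 6.97 and 22.0 CPM in 1x and 2x MyoD and 0.688 and 1.93 CPM in 1x and 2x Myf5 (log2 fold change 3.50 ± 0.66, edgeR adjusted p = 0.0272). Rb1, the retinoblastoma gene, was at 146 and 262 CPM in 1x and 2x MyoD and 75.2 and 97.3 CPM in 1x and 2x Myf5 (log2 fold change 1.27 ± 0.24, edgeR adjusted p = 0.0285). The 2 factors did not overlap for Cdkn1c or Rb1. Cdkn1a, the inhibitor p21, was already at 244 to 416 CPM without a factor and reached 707 and 1073 CPM in 1x and 2x MyoD and 483 and 540.0 CPM in 1x and 2x Myf5 (log2 fold change 0.82 ± 0.20). Cdkn2c, the inhibitor p18, was lower in MyoD, at 29.8 and 22.4 CPM in 1x and 2x MyoD and 39.6 and 38.5 CPM in 1x and 2x Myf5, and all 4 libraries lay below the controls. None of the cell cycle exit genes was called by edgeR with 2x MyoD, 1x Myf5 or 2x Myf5 left out.

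Of 38 proliferation genes, 1 was higher and 0 were lower, with a median log2 fold change of -0.22. The 1 was E2f2, an E2F transcription factor, at 5.62 and 9.19 CPM in 1x and 2x MyoD and 1.10 and 1.31 CPM in 1x and 2x Myf5 (log2 fold change 2.64 ± 0.36, edgeR adjusted p = 0.0229). Mki67, a marker of cycling cells, was at 96.4 and 71.9 CPM in 1x and 2x MyoD and 102 and 103 CPM in 1x and 2x Myf5 (edgeR adjusted p = 0.280). Among 10 Myc family genes 1 was higher, Mycl, at 107 and 170.0 CPM in 1x and 2x MyoD and 29.8 and 58.9 CPM in 1x and 2x Myf5 against 1.11 to 2.39 CPM without a factor (log2 fold change 1.67 ± 0.35, edgeR adjusted p = 0.0353). Of 11 progenitor and lineage factors tested, 22 written, 1 was lower, Pax3, at 32.7 and 27.5 CPM in 1x and 2x MyoD and 38.8 and 41.6 CPM in 1x and 2x Myf5 (log2 fold change -0.40 ± 0.09), and it was not called when no filter was applied. The p53 target list had 1 of 17 higher, Cdkn1a, and 1 lower, the death receptor gene Fas. Fas was at 27.6 and 19.4 CPM in 1x and 2x MyoD and 45.3 and 39.7 CPM in 1x and 2x Myf5. The proliferation, Myc, progenitor and p53 lists had 2.63%, 10%, 0% and 5.88% called higher, against 4.21% of all genes. They had 0%, 0%, 9.09% and 5.88% called lower, against 1.29%. Each share above 0% is 1 gene. No member of these lists was called when 2x MyoD, 1x Myf5 or 2x Myf5 was left out.

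E proteins, Id genes and chromatin cofactors, the partners of the introduced factors, had a median log2 fold change of -0.03, near that of all genes. Of 25 that passed from 26 written, 3 were higher (12%) and 1 was lower (4%), against 4.21% and 1.29% of all genes. Smarcc1, a subunit of the SWI/SNF remodelling complex, was at 201 and 231 CPM in 1x and 2x MyoD and 158 and 164 CPM in 1x and 2x Myf5 (log2 fold change 0.45 ± 0.08, edgeR adjusted p = 0.0272). Twist1, a helix-loop-helix protein that inhibits myogenesis, was at 30.1 and 23.5 CPM in 1x and 2x MyoD and 41.7 and 41.4 CPM in 1x and 2x Myf5 (log2 fold change -0.61 ± 0.12, edgeR adjusted p = 0.0316). For Twist1 the Myf5 libraries stayed within the control range of 40.8 to 47.9 CPM and the MyoD libraries fell below it. The E protein gene Tcf12 and the demethylase gene Kdm1a rose by 0.48 for Tcf12 and 0.44 for Kdm1a on the log2 scale. Without 2x MyoD, or with 1x or 2x Myf5 left out, 0 of these genes were called.

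**Figure D3:**
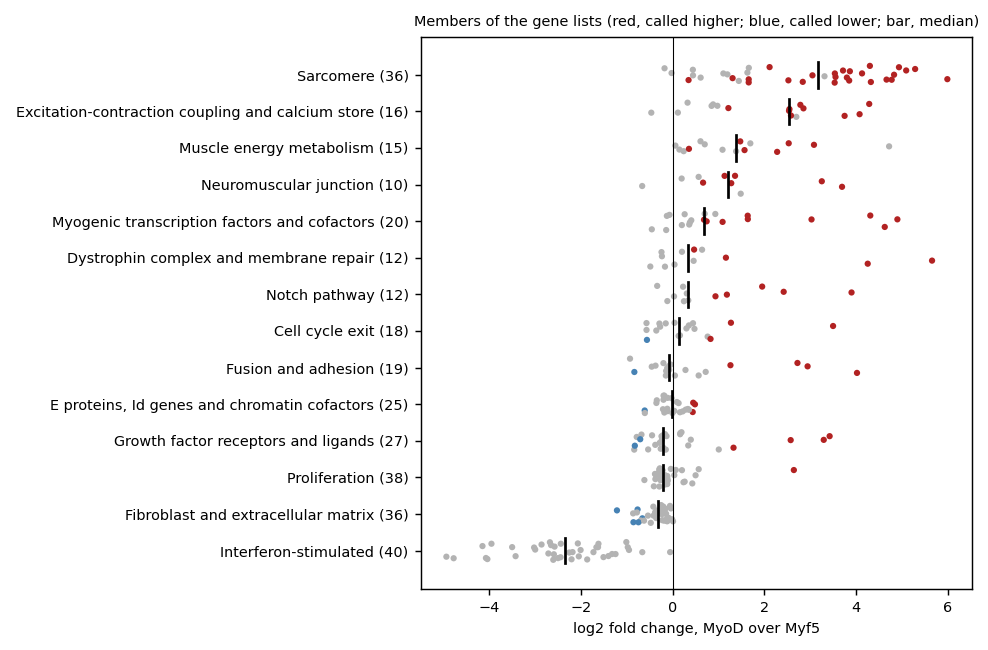
Log2 fold change of MyoD over Myf5 for each tested member of 14 gene lists (number tested in brackets), with red for genes called higher, blue for genes called lower, grey for the rest and a black bar at the median. The medians run from 3.18 for sarcomere genes to -2.35 for interferon-stimulated genes, of which none was called.

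Genes called lower in MyoD changed less than those called higher, and fibroblast matrix genes were among them. Interferon-stimulated genes, with a median log2 fold change of -2.35, were not called and are described below. Of 36 matrix genes tested from 38 written, 0 were higher and 5 were lower (13.9%, against 1.29% of all genes). Their median log2 fold change was -0.32, against -0.01 for all genes, and 35 of 36 had a value below 0. Lox, the collagen cross-linking enzyme lysyl oxidase, was at 267 and 147 CPM in 1x and 2x MyoD and 490.2 and 483 CPM in 1x and 2x Myf5, against 485 to 599 CPM in the controls (log2 fold change -1.22 ± 0.22, edgeR adjusted p = 0.0259). Fbln5, the elastic-fibre protein fibulin 5, was at 138 and 102 CPM in 1x and 2x MyoD and 206 and 235 CPM in 1x and 2x Myf5 (log2 fold change -0.86 ± 0.14, edgeR adjusted p = 0.0229). For Lox and Fbln5 alike Myf5 stayed near the control range and MyoD fell below it, further at 2x than at 1x. The other 3 were Fbln1, Col12a1 and Mmp3. Col1a1, the main collagen gene of these cells, was at 1922 and 1173 CPM in 1x and 2x MyoD and 2317 and 1705 CPM in 1x and 2x Myf5 (edgeR adjusted p = 0.317), and 1x MyoD lay above 2x Myf5. The median in the cross pair was -0.08, and 0 matrix genes were called with 2x MyoD, 1x Myf5 or 2x Myf5 left out.

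Among called genes with a mean of at least 5 CPM, Myf5 aside, the 15 largest falls were smaller than the largest rises. Saa3, an acute-phase protein, was at 164 and 90.1 CPM in 1x and 2x MyoD and 343 and 392 CPM in 1x and 2x Myf5 (log2 fold change -1.52 ± 0.25, edgeR adjusted p = 0.0229). Cp, the copper protein ceruloplasmin, was at 13.3 and 9.04 CPM in 1x and 2x MyoD and 28.7 and 33.3 CPM in 1x and 2x Myf5, and Lcn2, the iron-siderophore carrier lipocalin 2, was at 4.86 and 3.11 CPM in 1x and 2x MyoD and 10.8 and 10.4 CPM in 1x and 2x Myf5. The controls spanned 96.7 to 372 CPM for Saa3 and 1.69 to 15.3 CPM for Lcn2, a wide span without any factor. Casp4, an inflammatory caspase, was at 4.06 and 2.96 CPM in 1x and 2x MyoD and 7.32 and 10.2 CPM in 1x and 2x Myf5. Ifitm3, an interferon-induced antiviral protein, was at 296 and 237 CPM in 1x and 2x MyoD and 519 and 817 CPM in 1x and 2x Myf5, and it was not called when 1x MyoD was left out. Tlr2, a receptor for bacterial lipoproteins, was at 51.9 and 30.5 CPM in 1x and 2x MyoD and 80.8 and 92.1 CPM in 1x and 2x Myf5, and the chemokine gene Ccl7 was at 169.7 and 111 CPM in 1x and 2x MyoD and 269 and 301 CPM in 1x and 2x Myf5. The surface antigen genes Ly6a and Ly6c1, together with Apobec1 and Ch25h, had log2 fold changes of -1.11 for Ly6a, -1.30 for Ly6c1, -1.21 for Apobec1 and -1.21 for Ch25h. Control spans were also wide for Casp4 (2.08 to 9.87 CPM), Ifitm3 (246 to 779 CPM) and Apobec1 (4.36 to 12.1 CPM). Reads of near-identical family members could be split between copies for Saa3 and the Ly6 genes. The remaining falls were Bmper, Slit2 and Col8a1, at -1.05 for Bmper and -1.01 for Slit2 on the log2 scale, with Col8a1 at 103 and 63.0 CPM in 1x and 2x MyoD and 170.4 and 165 CPM in 1x and 2x Myf5.

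Interferon-stimulated genes had the lowest median of any list, yet none of 40 was called by edgeR in the fit over all 10 libraries. At an unadjusted p under 0.05 there were 22 of the 40, all lower in MyoD, and DESeq2 called 2 lower. Over all 13825 genes tested, 3378 in either direction had an unadjusted p under 0.05 in edgeR. All 40 log2 fold changes were below 0, with a median of -2.35, and in 37 of 40 (92.5%) both MyoD libraries lay below both Myf5 libraries, against 33.8% of all genes. Ifit1, an antiviral RNA-binding protein, was at 54.6 and 53.7 CPM in 1x and 2x MyoD and 188 and 704 CPM in 1x and 2x Myf5 (log2 fold change -3.02 ± 1.17, edgeR adjusted p = 0.157). Ifit1 stood at 13.0 CPM without virus, 28.6 CPM with 1x GFP, and 282 to 849 CPM over the MOI series. The ubiquitin-like modifier gene Isg15 followed, at 4.99 and 6.11 CPM in 1x and 2x MyoD and 14.1 and 113 CPM in 1x and 2x Myf5. Ifit1 and Isg15 are examples chosen after their values were seen.

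The 2 libraries of each factor differed in how the interferon genes varied. The median ratio of 2x to 1x was 0.981 for MyoD and 3.26 for Myf5, and 39 of 40 genes were at least 1.5-fold higher in 2x than in 1x Myf5, while 33 of 40 were within 1.5-fold between the MyoD libraries. At 1x, Myf5 exceeded MyoD in 38 of 40, and 1x MyoD exceeded 1x GFP in 37 of 40. In 38 of 40, 2x Myf5 lay within the range of the MOI series. The median log2 ratio was -1.24 at 1x, -3.01 at 2x and -2.78 in the cross pair, and the median log2 fold change was -1.25 without 2x Myf5. With the MOI series as a group of its own, 32 of 40 were called lower in edgeR, and with a dose term in the 4 MyoD and Myf5 libraries alone 34 were. What sets these levels in the 2x Myf5 library was not tested.

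**Figure D4:**
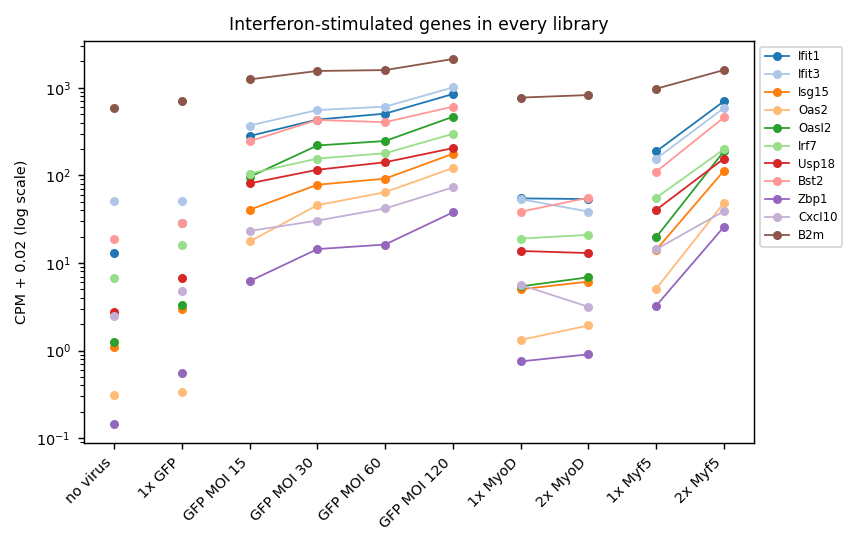
Levels of 11 interferon-stimulated genes in the 10 libraries, as CPM with 0.02 added on a log axis, with lines joining libraries of 1 virus. The 2 MyoD libraries are mostly level, whereas 2x Myf5 is above 1x Myf5 for every gene drawn and in the region of the GFP series.

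Several lists held no called gene in edgeR. Their counts at an unadjusted p under 0.05 stand beside 3378 of all 13825 genes tested, in either direction. Smooth muscle genes had 7 of 12 at an unadjusted p under 0.05 (5 higher, 2 lower) and DESeq2 called 1 in each direction. Cartilage, bone and fat genes had 2 of 12, both lower, with 1 lower in DESeq2. Unfolded protein and stress genes had 3 of 20, all lower, with 1 lower in DESeq2. Cholesterol and lipid synthesis genes had 2 of 22, both higher, with 0 in DESeq2. The marker lists for macrophages (4 tested), neurons and glia (4), cardiac muscle (3) and endothelium (2) had 1, 0, 0 and 0 at that level and 0 in DESeq2, and none of 10 epithelial genes passed the filter. The serum response list had 4.76% called lower, from 1 gene, against 1.29% of all genes. Of 21 serum response genes tested 1 was called, Fosl2, an AP-1 factor gene, lower at 263 and 229.6 CPM in 1x and 2x MyoD and 312 and 359 CPM in 1x and 2x Myf5 (log2 fold change -0.43 ± 0.09), and 0 were called with 2x MyoD, 1x Myf5 or 2x Myf5 left out.

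Single pairs of libraries have no replicate and no test, and they were drawn from the same libraries that gave the calls. The called genes did not overlap between the factors, so their direction in each pair was largely fixed in advance. At 1x, 303 of 13801 genes were at least 2-fold higher in MyoD and 91 were lower (2.2% and 0.659%). At 2x, 600 of 13781 were higher and 367 were lower (4.35% and 2.66%). In the cross pair, where the transgenes were nearly equal, 239 of 13759 were higher and 192 were lower (1.74% and 1.4%). Of 13516 genes that were tested in the fit and met the count minimum in all 3 pairs, 197 were higher in every pair and 71 were lower in every pair (1.46% and 0.525%), of which 170 and 8 were also called in the fit over all libraries. The cross pair shares 1x MyoD with the first pair and 2x Myf5 with the second, so these counts are not separate evidence.

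Among the 5 largest log2 ratios of the cross pair, over called genes past 2-fold in all 3 pairs, were those of Mylk4 (4.09), Tnni1 (3.96), Frmpd1 (3.88) and Slco2b1 (3.68). Mylk4, a myosin light chain kinase gene, was at 2.41 and 12.1 CPM in 1x and 2x MyoD and 0 and 0.117 CPM in 1x and 2x Myf5. The organic anion transporter gene Slco2b1 was at 2.18 and 4.74 CPM in 1x and 2x MyoD and 0.132 and 0.146 CPM in 1x and 2x Myf5, and Frmpd1 was at 1.86 and 4.82 CPM in 1x and 2x MyoD and 0 and 0.102 CPM in 1x and 2x Myf5. These 3 genes were nearly undetected in Myf5, and DESeq2 did not call Mylk4 (adjusted p = 0.0759). The 5 smallest were those of Hs3st1 (-1.86), Cxcl5 (-1.66), Hp (-1.64), Gda (-1.35) and Cp (-1.31). Hp, the hemoglobin-binding protein haptoglobin, was at 1.37 and 1.47 CPM in 1x and 2x MyoD and 4.36 and 4.35 CPM in 1x and 2x Myf5, and the chemokine gene Cxcl5 was at 0.918 and 0.820 CPM in 1x and 2x MyoD and 2.45 and 2.99 CPM in 1x and 2x Myf5. The calls of Hs3st1 and Cxcl5 were lost without 1x MyoD. Hp and Cxcl5 were lower in MyoD than in Myf5 at either dose, and Hp at 2x Myf5 was no higher than at 1x. For Hp the controls spanned 0.921 to 5.72 CPM, a range that holds both MyoD libraries. For Cxcl5 they spanned 1.68 to 4.56 CPM, above both MyoD libraries.

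**Figure D5:**
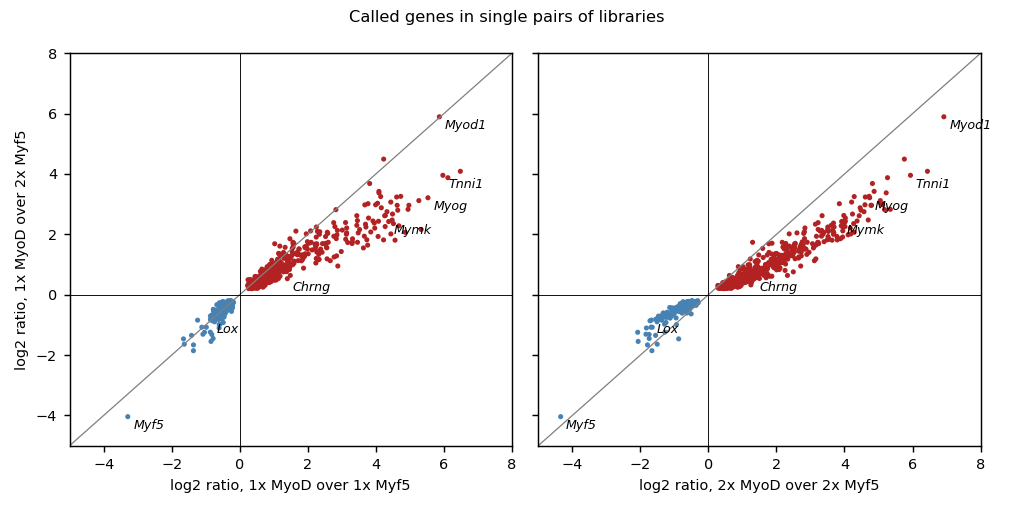
Log2 ratio in the cross pair (1x MyoD over 2x Myf5, vertical axis) against the log2 ratio at 1x (left) and at 2x (right) for the 582 genes called higher and the 179 called lower, with a grey line of equality. Red points (higher in MyoD) lie mostly below the line on both sides, and Chrng falls to 0.53 where Tnni1 remains at 3.96. That red points stay above 0 follows from the called genes having no overlap between the factors.

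Set against the 6 libraries without a factor, the 268 genes called higher at 2-fold or more had both MyoD libraries above all controls in 267 (99.6%, against 19.2% of all genes). Both Myf5 libraries also lay above all controls in 160 of the 268 (59.7%, against 10.5% of all genes), among them in 104, and below them in 4. For the 26 genes called lower at 2-fold or more, both MyoD libraries lay below all controls in 18 (69.2%, against 21.2% of all genes). Myf5 was not below or above all controls in 21 of the 26 (80.8%), close to the 79.4% of all genes, and it was below in 3 (against 10.1% of all genes) and above in 2. Chrna4, a neuronal acetylcholine receptor subunit, is one with Myf5 just above the controls, at 6.59 and 22.9 CPM in 1x and 2x MyoD and 0.307 and 0.964 CPM in 1x and 2x Myf5 against 0 to 0.179 CPM, and Myo5b, a vesicle motor, is another, at 7.58 and 20.6 CPM in 1x and 2x MyoD and 0.264 and 0.774 CPM in 1x and 2x Myf5 against 0.0368 to 0.224 CPM. Of the other large rises, Umodl1 and Gm15816, had log2 fold changes of 4.44 for Umodl1 and 4.56 for Gm15816.

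Few genes moved equally with both factors by an interval. Of 57 genes with all 4 libraries at least 2-fold above every control, 37 were called higher in MyoD and 3 had a 95% interval of the difference within 1.5-fold either way. The 3 were Atoh8, Dgat2 and Unc5c. Atoh8, a helix-loop-helix transcription factor gene, was at 20.0 and 22.8 CPM in 1x and 2x MyoD and 18.8 and 23.0 CPM in 1x and 2x Myf5, against 4.91 to 8.06 CPM in the controls, with an interval of -0.39 to 0.50 on the log2 scale. Dgat2, a triglyceride synthesis enzyme, was at 7.93 and 9.04 CPM in 1x and 2x MyoD and 7.57 and 9.61 CPM in 1x and 2x Myf5, with an interval of -0.48 to 0.49. Unc5c, a netrin receptor, was at 16.7 and 15.9 CPM in 1x and 2x MyoD and 12.9 and 18.1 CPM in 1x and 2x Myf5, with an interval of -0.40 to 0.58. Of 3 genes with all 4 libraries at least 2-fold below every control, Fjx1 met the same interval, -0.57 to 0.35, at 2.15 and 1.64 CPM in 1x and 2x MyoD and 2.31 and 1.84 CPM in 1x and 2x Myf5 against 6.22 to 9.07 CPM. No gene met a stricter interval.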

How the data were processed

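Poly(A) RNA libraries of the 4 fibroblast samples with MyoD or Myf5 virus, and of the 6 without a muscle factor, were read from 1 gene table. As deposited, it holds expected counts, not whole for 1982 to 2767 genes per library, which were rounded. Per the submitters' processing notes, CASAVA 1.8.2 and TopHat2 2.0.8 were used with mm9; the counting tool and annotation are not given in the sources used here. Of 37287 gene IDs, 32610 were paired with symbols through GENCODE vM21. Groups came from the labels, and GFP libraries of every dose formed 1 group in the main fit.

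In R 4.3.3, edgeR 4.0.16 with TMM fitted genes with CPM of at least 1 in at least 2 of 10 libraries (6 residual degrees of freedom, biological coefficient of variation 0.157, two-sided, Benjamini-Hochberg adjusted p under 0.05). Standard errors came from the F statistic. Pair ratios used TMM-scaled CPM with a prior count of 2, over genes with a mean of at least 50 counts. Called without test means past 2-fold. DESeq2 1.42.0 was an alternative, with other filters and scaling, a dose term and left-out libraries. The edgeR fit was tested on simulated data. Members and lists were chosen with earlier results of these data known. The rule for naming genes took the introduced factors, Myog, the 15 largest rises and falls above 5 CPM without overlap, 2 members per list with a called gene, 5 at each end of the cross pair, and up to 8 above and 4 below the controls that moved alike; others are examples chosen after their values were seen. No protein sequences were used. Some genes that the rule selects are not reported here.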

Additional observations from a re-analysis of the deposited data

Results flagged for a closer look

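In the 5 GFP libraries, Myog had 1 library apart from the others: 1x GFP held 0.503 CPM and the 4 MOI libraries held 0, so the gap divided by the range was 1.0, against a limit of 0.71 for 5 values. The 1x GFP library held 81.5 M (mega) counts, 41 of them for Myog, and the others 17.9 to 22.4 M. The library without virus, at 72.7 M counts, held 0.248 CPM. Chance sets apart about 5 in 100 such groups when values are not tied. Here 4 values tied at 0 give 1.0 whatever the remaining value, so that rate does not apply. What sets the level in 1x GFP was not tested. Myod1 and Myf5 in the same libraries gave 0.296 and 0.386, below the limit.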

How the results depend on the processing

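The counts of called genes (582 higher, 179 lower in MyoD) depended on how the spread was estimated. No main call changed sign in any fit, which the lack of overlap between MyoD and Myf5 libraries in every called gene largely fixed in advance. Higher and lower genes numbered 1163 and 587 with DESeq2, 1474 and 1208 with the MOI series as a group of its own, 0 and 0 with the 4 libraries alone and no dose term, and 0 and 0 without the 4 MOI libraries (chosen after seeing the data). Leaving out single libraries gave 1 to 1330 higher and 1 to 845 lower; the lone library of a factor is then assumed to vary like the other groups. RLE scaling gave 619 and 159, no filter 600 and 122, and a filter in the 4 libraries 611 and 202. The replicate number is the dose here and does not pair cultures. With it as a replicate block, the counts were 924 and 476 over all 10 libraries and 1281 and 834 in the 4 alone, and the 1x deviations of MyoD and Myf5 correlated at r = 0.396 over 13825 genes. Of 65 called genes named, 63 lost the call with 1x or 2x Myf5 left out and 55 without 2x MyoD, where fewer samples were fitted. With a minimum of 20 counts, 173 genes were 2-fold lower at 1x. With the stricter of 2 intervals, 0 genes above and 0 below the controls were alike. Depth limits genes below about 1 CPM, and 2 libraries a factor limit all p-values.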
